A study of Mus musculus with 10 samples.

Results

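MHC class II antigen presentation was followed in whole kidneys of old mice through 7 genes, of 13299 in the deposited table. They are the chain genes H2-Aa, H2-Ab1 and H2-Eb1, the invariant chain gene Cd74, the peptide exchange genes H2-DMa and H2-DMb1, and the class II transactivator gene Ciita. They were chosen by name for their role, and all 7 passed the filter on low values (a normalized count of at least 5 in at least 5 samples). Kidneys of 5 Rragc S74N/+ mice, which carried the S74N change in 1 allele of Rragc, were compared with kidneys of 5 Rragc +/+ mice. Rragc encodes RagC, a GTPase that relays nutrient sufficiency to the kinase complex mTORC1. All 10 mice were 1.5 years old, no treatment was given in the labels, and the study describes the animals as C57BL/6. The knock-in is in the germline, so kidney cells and the blood-derived cells within the kidney all carried it, and a whole-tissue sample does not tell in which of them an mRNA was made. The labels do not give the sex of the mice; 4 Y-linked genes were above 0 in all 10 libraries.

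Class II molecules show peptides from the endosome and lysosome to CD4 T cells. The alpha and beta chains pair in the endoplasmic reticulum around the invariant chain, which blocks the groove and guides the complex to endosomes. There, cysteine proteases trim the invariant chain to a short remnant named CLIP, and the DM heterodimer exchanges CLIP for antigenic peptides. The genes are transcribed in dendritic cells, macrophages and B cells, and after interferon gamma in other cells, when CIITA docks on factors bound to the conserved X and Y boxes of their promoters. In the kidney, resident macrophages and dendritic cells carry most class II, and tubule cells can be induced to make it.

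To show what these promoters share, windows of 65 bases that end shortly after the Y box are printed for some of the chain and exchange genes. These are H2-Aa, H2-Eb1, H2-DMb1, H2-DMb2 and H2-Oa, and H2-DMa is not shown. The sequences come from the RefSeq promoter table (GRCm38.p6, an earlier build than that of the counts). Capitals mark matches to the motifs CTNGNAAC (within the X box) and ATTGG (within the Y box), which do not overlap each other, and each window is written 5′ to 3′ on the strand of its gene. The windows lie at chr17:34287852-34287916 on the minus strand for H2-Aa, and on the plus strand at chr17:34305763-34305827 for H2-Eb1, chr17:34153085-34153149 for H2-DMb1, chr17:34145114-34145178 for H2-DMb2 and chr17:34092291-34092355 for H2-Oa.
H2-Aa: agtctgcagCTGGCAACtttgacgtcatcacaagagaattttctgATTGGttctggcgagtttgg
H2-Eb1: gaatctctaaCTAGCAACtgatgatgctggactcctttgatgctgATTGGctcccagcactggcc
H2-DMb1: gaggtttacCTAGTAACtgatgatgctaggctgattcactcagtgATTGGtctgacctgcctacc
H2-DMb2: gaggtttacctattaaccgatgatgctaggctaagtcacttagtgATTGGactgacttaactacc
H2-Oa: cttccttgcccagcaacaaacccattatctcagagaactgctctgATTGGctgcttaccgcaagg

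Each window was placed around the first ATTGG of its promoter, so all 5 hold it by construction. CTNGNAAC was found in 3 of them, 27 or 28 bases upstream of ATTGG. Among 32851 promoters of 300 bases, searched on both strands, 13.2% held CTNGNAAC, 37.4% held ATTGG, and 83 (0.253%) held the first followed by the second after 12 to 30 bases. The letters of the motifs were chosen after these promoters had been read, so the matches are a description. H2-DMb1 and H2-DMb2, near copies of the DM beta chain gene, differed at 9 of the 65 bases (86.2% identical). Counted from 1 at the 5′ end of the window, and with the base of H2-DMb1 first, the differences were G13T, T18C, G33A, T35G, C41T, T51A, C57T, G59A and C60A. The pair is shown because H2-DMb2 passed the test and H2-DMb1 did not, as given with the values of the DM chains.

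The libraries held 4488493 to 5797251 reads per kidney, recovered from the normalized counts, and only mRNA 3′ ends were read, which makes counts independent of transcript length. Rragc mRNA itself did not pass the test (log2 fold change −0.22 ± 0.20 (SE), limma adjusted p = 0.51), and reads from the 3′ end do not show the S74N change. Of 13236 genes tested with limma on log2(normalized count + 1), 798 passed an adjusted p of 0.05 (6.03%), with 457 higher (3.45%) and 341 lower (2.58%) in Rragc S74N/+ kidneys. Changes below are given on this log2 scale as Rragc S74N/+ against Rragc +/+, with the standard error.

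Of the 7 class II genes, Cd74 rose in Rragc S74N/+ kidneys, and the other 6 did not pass the test. The share called higher was thus 1 of 7, against 3.45% of all genes. It was 1 of 7 also with edgeR on 8 and on 10 samples and with DESeq2 on 8 samples, which called 6.43%, 6.3% and 10.6% of all genes in either direction. At an unadjusted p of 0.05, 3 of 7 were higher (Cd74, H2-Ab1 and H2-DMa), against 12.6% of all genes. This count was 1 of 7 without Rragc +/+ replicate 3, Rragc S74N/+ replicate 2 or Rragc S74N/+ replicate 5, and 6 of 7 without Rragc S74N/+ replicate 1. The point estimate was above 0 for 7 of 7, against 48.7% of all genes, and their median was 0.33, against −0.01 over all genes. For H2-DMb1 that estimate was almost 0, and it fell below 0 in all 3 fits on 8 samples and in some of those without 1 kidney.

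Cd74 encodes the invariant chain, which also reaches the cell surface as a receptor for the cytokine MIF. Its normalized counts were 933, 733, 733, 1066 and 1081 in the 5 Rragc +/+ kidneys and 2078, 1980, 1569.65, 1629.5 and 2065 in the 5 Rragc S74N/+ kidneys. The lowest Rragc S74N/+ kidney thus stood above the highest Rragc +/+ kidney, a separation in this direction that 4.15% of all tested genes showed. The mean of 5 kidneys went from 909 ± 171 (SD) to 1864 ± 245 (SD), a 2.05-fold rise (log2 fold change 1.05 ± 0.14, limma adjusted p = 0.000506, 95% interval 0.75 to 1.34). With each kidney left out in turn, the log2 fold change lay between 0.97 and 1.11 and Cd74 passed the limma test in 10 of 10 fits. The titles of the samples carry numbers under or over 200, whose meaning the labels do not give. Among the 3 against 3 kidneys under 200 the log2 difference of Cd74 was 1.23, and among the 2 against 2 over 200 it was 0.77.

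**Figure D1:**
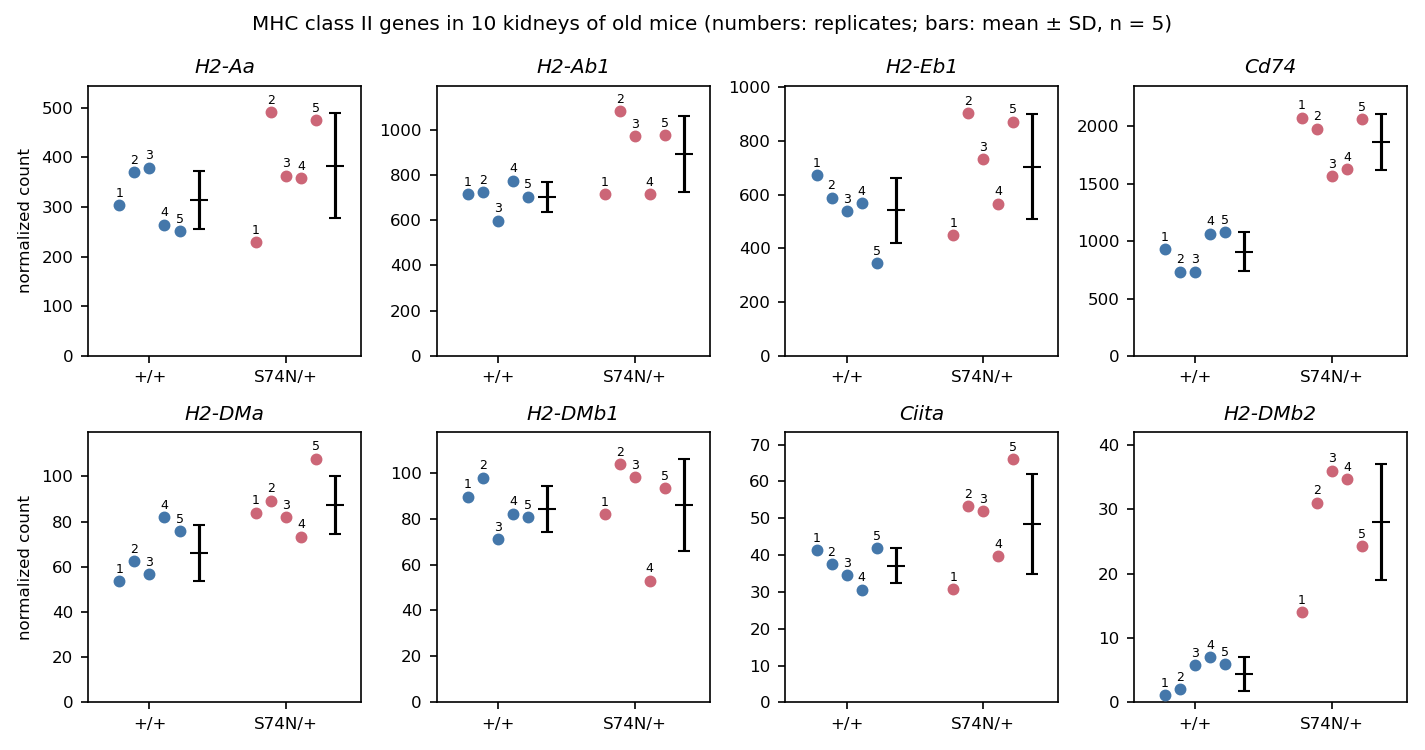
Normalized counts (vertical axis, from 0, a separate scale in each panel) of the 7 class II genes and of H2-DMb2 in each kidney, with Rragc +/+ in blue and Rragc S74N/+ in red. Points are kidneys numbered by replicate, and bars are mean ± SD (n = 5); the groups do not overlap for Cd74 and H2-DMb2 and overlap in the other 6 panels.

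H2-Aa and H2-Ab1 encode the alpha and beta chains of I-A. H2-Aa counts were 304, 370.3, 379, 265 and 251 in Rragc +/+ kidneys and 229.4, 490.4, 363, 357 and 475 in Rragc S74N/+ kidneys. Both the lowest and the 2 highest values of the 10 were Rragc S74N/+ kidneys, and the difference did not pass the test (0.26 ± 0.19, limma adjusted p = 0.416, 95% interval −0.14 to 0.66). The log2 difference of H2-Aa was −0.02 in the kidneys with title numbers under 200 and 0.68 in those over 200. H2-Ab1 counts were 715, 724, 597, 775 and 703 in Rragc +/+ kidneys and 714, 1079.7, 969.8, 714 and 975 in Rragc S74N/+ kidneys. In Rragc S74N/+ replicates 2, 3 and 5, H2-Ab1 stood above every Rragc +/+ kidney, while replicates 1 and 4 lay within the Rragc +/+ range. Its change was 0.33 ± 0.13, with a limma p of 0.0256 that became 0.139 after adjustment and a 95% interval of 0.05 to 0.61. Without Rragc S74N/+ replicate 1, H2-Ab1 passed the limma test with an adjusted p of 0.049.

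H2-Eb1 encodes the beta chain of I-E, whose alpha chain partner H2-Ea is not made in mice of the C57BL/6 haplotype. H2-Ea was not analysed here. H2-Eb1 counts ran from 345 to 672 with a median of 567 in Rragc +/+ and from 449 to 901 with a median of 732 in Rragc S74N/+ kidneys. The groups overlapped, and the change of 0.36 ± 0.20 did not pass the test (limma adjusted p = 0.268, 95% interval −0.06 to 0.78).

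H2-DMa and H2-DMb1 encode the chains of DM, the peptide exchange factor. For H2-DMa the mean normalized count of 5 kidneys was 66.1 ± 12.3 (SD) with Rragc +/+ against 87.3 ± 12.8 (SD) with Rragc S74N/+ (0.40 ± 0.17, limma adjusted p = 0.153, 95% interval 0.04 to 0.76). Rragc +/+ replicates 4 and 5, at 82.1 and 75.6, lay within the Rragc S74N/+ range of 73.3 to 108. H2-DMb1 had 84.2 ± 10.04 and 86.0 ± 20.1 normalized counts, respectively, with a log2 fold change of 0.00 ± 0.19 and a 95% interval of −0.39 to 0.40. Its lowest kidney was Rragc S74N/+ replicate 4 at 53.0 and its highest Rragc S74N/+ replicate 2 at 104.

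H2-DMb2, the second DM beta chain gene, is no member but stands beside H2-DMb1 in the pathway list. It had 1.12, 2.08, 5.76, 6.99 and 5.97 normalized counts in Rragc +/+ kidneys and 14.0, 31.0, 35.99, 34.6 and 24.3 in Rragc S74N/+ kidneys. The groups did not overlap, and the mean rose 6.38-fold (log2 fold change 2.53 ± 0.44, limma adjusted p = 0.00426). At 1 to 8 recovered reads per Rragc +/+ kidney the size of this fold is loosely set (95% interval 1.61 to 3.46 on the log2 scale), whereas the H2-DMb2 call held with each kidney left out. Reads of the 2 beta chain genes could in part be assigned to the wrong copy: in the GENCODE transcripts of GRCm38, H2-DMb1 and H2-DMb2 were 64.6% identical over their last 300 bases with a longest shared run of 23 bases, and 69.1% identical over the whole transcript with a longest shared run of 221 bases. How reads that match both copies were shared was not tested. H2-Oa, the alpha chain of the DM inhibitor DO, had 0 to 7.96 normalized counts in Rragc +/+ and 9.17 to 22.3 in Rragc S74N/+ kidneys. H2-Oa narrowly missed the threshold (1.98 ± 0.58, limma adjusted p = 0.0542) and passed it in 6 of 13 other settings, and H2-Eb2 and H2-Ob were not analysed here.

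Ciita encodes the transactivator on which class II transcription depends. It was the lowest of the 7 in counts, with 30.6 to 41.8 in Rragc +/+ kidneys and 30.8, 53.3, 52.0, 39.7 and 66.1 in Rragc S74N/+ kidneys. Of the Rragc S74N/+ kidneys, replicates 2, 3 and 5 stood above every Rragc +/+ kidney, and the change did not pass the test (0.33 ± 0.22, limma adjusted p = 0.358, 95% interval −0.13 to 0.80). Counts at the 3′ end do not tell which of the promoters of Ciita was in use.

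To ask whether Cd74 changed by more than the chains within the same kidney, each of the other 6 members was divided by H2-Aa. The kidneys held 3.07, 1.98, 1.93, 4.03 and 4.31 Cd74 counts per H2-Aa count in Rragc +/+ and 9.06, 4.04, 4.33, 4.56 and 4.35 in Rragc S74N/+ mice. Rragc +/+ replicates 4 and 5 thus stood level with 4 of the Rragc S74N/+ kidneys, and Rragc S74N/+ replicate 1 stood far above all. The mean ratio was 1.73-fold higher in Rragc S74N/+ kidneys (log2 difference 0.79), with an exact two-sided permutation p of 0.0159 that became 0.095 after adjustment over 6 ratios. Within the kidneys with title numbers over 200 the log2 difference of this ratio was 0.09, and within those under 200 it was 1.25, in designs whose smallest exact permutation p is 0.333 and 0.1. The other 5 ratios to H2-Aa had log2 differences between −0.26 (H2-DMb1) and 0.15 (H2-DMa), each with an adjusted p of 0.77 in the exact permutation test.

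Per H2-Ab1 count, a reference added after the data had been seen, the kidneys held 1.31, 1.01, 1.23, 1.38 and 1.54 Cd74 counts in Rragc +/+ and 2.91, 1.83, 1.62, 2.28 and 2.12 in Rragc S74N/+ mice. Here the groups did not overlap, and the ratio was 1.65-fold higher (log2 difference 0.72, exact permutation p = 0.00794, the smallest that the allocations of 10 kidneys can give, adjusted p = 0.0476 over 6 ratios). This adjustment does not count the 6 ratios to H2-Aa that were planned and tried first, so the pass is given as a description. H2-DMb1 per H2-Ab1 went the other way, with a log2 difference of −0.33 that did not pass (exact permutation p = 0.0238, adjusted p = 0.0714).

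**Figure D2:**
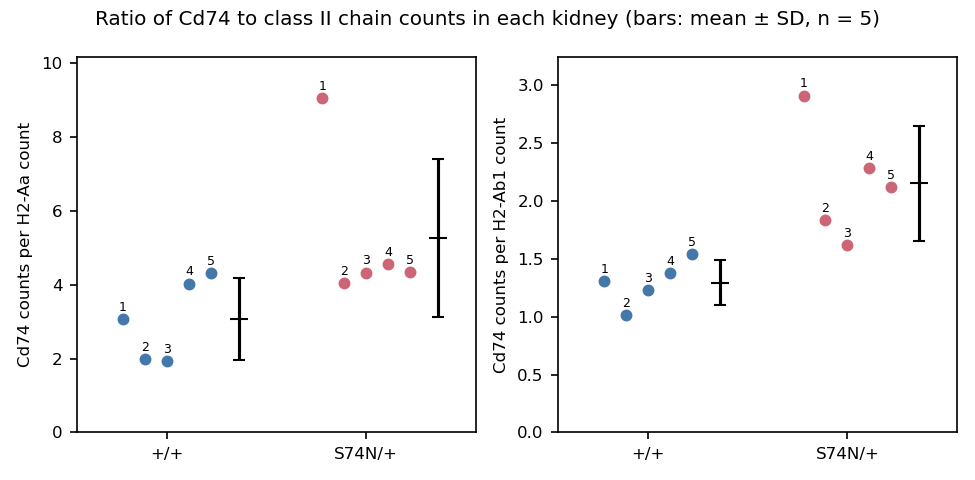
Cd74 counts per H2-Aa count (left) and per H2-Ab1 count (right) in each kidney, with replicate numbers beside the points and mean ± SD (n = 5) as bars, on axes from 0. Rragc S74N/+ replicate 1 stands highest in both panels, at 9.06 and 2.91, and the groups overlap on the left only.

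Among kidneys of the same genotype, how far the 7 genes moved together differed from pair to pair. Rragc S74N/+ replicate 1 had the highest Cd74 of all kidneys and the lowest H2-Aa, H2-Eb1 and Ciita of its group. Over the 10 deviations from the genotype means, H2-Aa went with H2-Eb1 (Pearson r = 0.79, exact permutation p = 0.00861, adjusted p = 0.0904; Spearman rho = 0.83, p = 0.0117, adjusted p = 0.0982), and r was 0.60 without the 2 kidneys farthest from the median of H2-Aa. H2-Ab1 went with H2-DMb1 to a like degree (r = 0.79, rho = 0.83). Further pairs with a high r were Cd74 with H2-DMa (0.69), H2-Aa with Ciita (0.68), H2-Ab1 with Ciita (0.68) and H2-Ab1 with H2-Eb1 (0.67). Only H2-Aa with Cd74 (−0.43), H2-Eb1 with Cd74 (−0.20) and H2-Aa with H2-DMa (−0.05) had an r below 0. None of the 21 pairs passed after adjustment in these exact permutation tests. With 10 kidneys, that does not show that the genes varied independently.

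**Figure D3:**
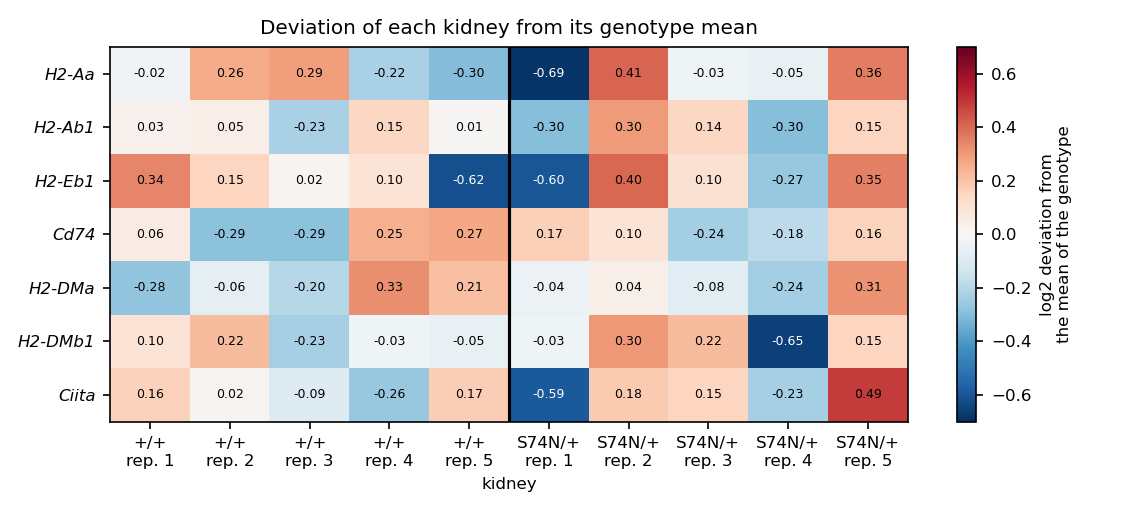
Deviation of each kidney (columns) from the mean of its genotype for the 7 class II genes (rows), in log2 units, red above and blue below the mean, with the value in each cell. Rragc S74N/+ replicate 1 is at −0.69 for H2-Aa and 0.17 for Cd74, and Rragc S74N/+ replicate 4 is at −0.65 for H2-DMb1.

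The genes whose deviations ran most like the mean deviation of the 7 members were, among 10611 candidates and over 10 kidneys, Tmem214 (r = 0.95), Slc5a2 (r = 0.94), Grk2 (r = 0.92), Vcam1 (r = 0.91), Tbc1d25 (r = 0.91), Hdac2 (r = 0.89), Rap2b (r = 0.89), Med27 (r = 0.89), Nfyb (r = 0.88) and Lsr (r = 0.88). Slc5a2 encodes the glucose carrier SGLT2 of the proximal tubule, Vcam1 an adhesion molecule for leukocytes, and Nfyb a subunit of the factor NF-Y that binds the Y box. These correlations were taken within genotypes and do not describe the change between them. Between genotypes, Slc5a2 fell from 845 to 415 normalized counts (−1.05 ± 0.14, limma adjusted p = 0.000476). Vcam1 rose, as Cd74 did, from 79.0 to 186 (1.12 ± 0.26, limma adjusted p = 0.0201), and the other 8 did not pass the test. These are the highest of many correlations over few samples and are given as a description.

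Of 10 genes for the supply of class II peptides, 1 rose and 3 fell, with a median of −0.27. Ctss, which encodes cathepsin S, the protease that makes the late cuts in the invariant chain, rose from 180 ± 33.3 to 378 ± 92.2 normalized counts (SD, n = 5; 1.05 ± 0.17, limma adjusted p = 0.00316). Its groups did not overlap, at 142 to 218 and 284 to 497, and its point estimate was that of Cd74. Ctsz, a lysosomal carboxypeptidase, fell from 271 ± 23.1 to 172 ± 26.3 (−0.67 ± 0.13, limma adjusted p = 0.00929). Lgmn, the asparaginyl endopeptidase legumain, which can start the cleavage of the invariant chain, fell from 155 ± 33.8 to 95.8 ± 13.6 (−0.67 ± 0.17, limma adjusted p = 0.0305). Ctsb, the gene of cathepsin B, also fell and is named after its value was seen (1009 to 773, −0.39 ± 0.10, limma adjusted p = 0.0354). The groups did not overlap for Ctsz, Lgmn and Ctsb, which was so, with the Rragc S74N/+ kidneys lower, for 4.01% of all tested genes. Ctss and Ctsz held in all fits without 1 kidney, and Lgmn in 4 of 10. The members of this list that fell are lysosomal proteases in general use by many cell types, kidney tubule cells included. In which cells they fell was not tested.

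**Figure D4:**
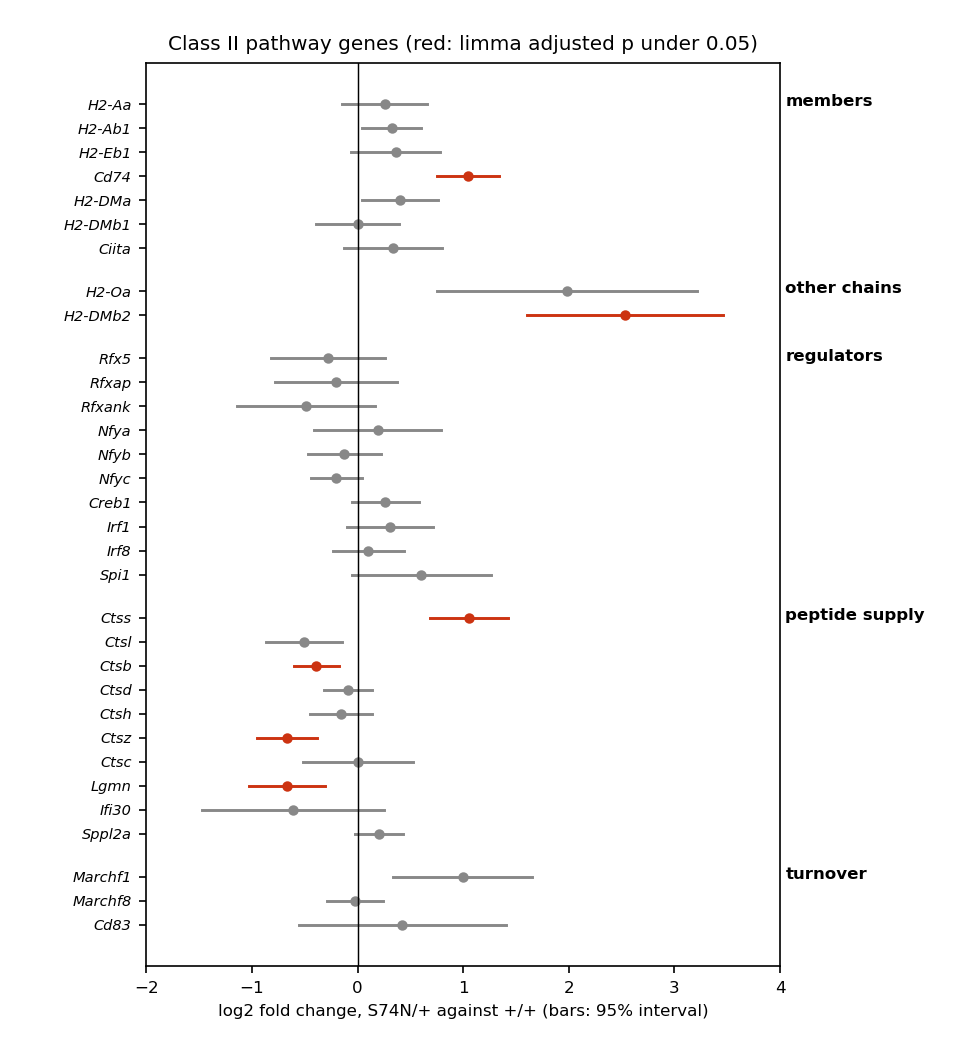
Log2 fold change, Rragc S74N/+ against Rragc +/+ (horizontal axis), of the class II members and of further pathway genes, grouped by role, with 95% intervals as bars and genes with a limma adjusted p under 0.05 in red. Cd74 (1.05) and Ctss (1.05) stand at the same value to the right of 0, and Ctsz, Lgmn and Ctsb to the left.

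Genes for factors that drive class II transcription were followed next. Spi1, the myeloid and B cell factor PU.1, and Creb1 did not pass (limma adjusted p = 0.23 and 0.285). Rfx5, a subunit of the complex that binds the X box, was at −0.28 ± 0.25 (limma adjusted p = 0.523). Of 4 tested genes for the interferon gamma receptor (Ifngr1, Ifngr2) and its kinases (Jak1, Jak2), 1 rose. Ifngr1, the ligand-binding receptor chain, went from 182 ± 22.4 to 259 ± 41.8 (0.51 ± 0.14, limma adjusted p = 0.0419), and this call held in 2 of 10 fits without 1 kidney. Ifng was not analysed here.

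None of 3 genes for class II turnover passed the limma test (1 of 3 at an unadjusted p of 0.05, 1 with DESeq2, 0 with edgeR, and 1 in limma with the title number range as a block). Marchf1, the ubiquitin ligase that sends class II to lysosomes, had 14.6 ± 6.05 and 29.0 ± 7.27 normalized counts (0.996 ± 0.31, limma adjusted p = 0.0677, and 0.0485 with that block). Of the genes for costimulation, 3 of 6 were in the table and none passed the limma test or a count model (Icosl lowest with a limma adjusted p = 0.179, and the 1 gene under an unadjusted 0.05). The T cell side of class II recognition, Cd4 and Lag3, was not analysed here. Of 13 class I genes, 0 passed the limma test (4 at an unadjusted p of 0.05), 10 had estimates above 0 and the median was 0.27. Psmb10, a subunit of the immunoproteasome, came nearest (limma adjusted p = 0.0573) and passed with DESeq2 on 8 samples and with edgeR on 10, and with the block Psmb8, another subunit, passed (limma adjusted p = 0.0401).

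Some markers of cells that make class II rose along with Cd74. Of 7 general leukocyte markers, 2 rose: Ptprc (CD45) went from 76.6 ± 10.6 to 181 ± 48.9 normalized counts (SD, n = 5; 1.20 ± 0.18, limma adjusted p = 0.00148) and Cd52 rose by 0.87 (limma adjusted p = 0.0315). The Ptprc call held in 10 of 10 fits without 1 kidney and that of Cd52 in 5, and Cd52 was also lost without a variance trend (limma adjusted p = 0.0756). The sum of the 7 was 274 to 348 in Rragc +/+ and 429 to 675 in Rragc S74N/+ kidneys. Of 14 macrophage markers 11 were tested and 3 rose, namely Cx3cr1, the fractalkine receptor (1.22 ± 0.18, limma adjusted p = 0.0015), Lyz2, a lysozyme (0.93 ± 0.17, limma adjusted p = 0.00769), and C1qb, a complement chain (0.73 ± 0.15, limma adjusted p = 0.0134). With DESeq2 on 8 samples, which called 10.6% of all genes, 6 passed. The sum of the 11 was 939 to 1219 in Rragc +/+ and 1402 to 1857 in Rragc S74N/+ kidneys, without overlap, although Adgre1, the F4/80 antigen, was at 0.18 ± 0.35 (limma adjusted p = 0.791). The largest parts of this sum, named after their values were seen, were Csf1r (means of 302 and 403, limma adjusted p = 0.0735) and Mertk (330 and 434, limma adjusted p = 0.0594), which were not called. Estimates were above 0 for 9 of the 11 macrophage markers, and the other 2, named after their values were seen, were C1qc, a chain of the same complex as C1qb (36.8 and 26.02 normalized counts, −0.48 ± 0.29, limma adjusted p = 0.309), and the lysosomal protein gene Cd68 (14.8 and 10.9, −0.34 ± 0.36, limma adjusted p = 0.598). In whole tissue, more cells of a type and more RNA per cell cannot be told apart. The part of these cells in the rise of Cd74, Ctss and H2-DMb2 was not tested.

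Markers of dendritic cells, B cells, plasma cells, T cells and neutrophils follow, and many of them gave few reads. Of 10 dendritic cell markers 4 were tested and 0 passed the limma test, with Itgax (CD11c) at 0.61 ± 0.34 (limma adjusted p = 0.276). None of the 4 was under an unadjusted 0.05 or passed a count model, and their sum was 45.8 to 116 in Rragc +/+ and 78.3 to 102 in Rragc S74N/+ kidneys. For B cells 4 of 10 markers were tested and 0 passed the limma test (2 at an unadjusted p of 0.05). Cr2, the complement receptor CD21, came nearest (limma adjusted p = 0.053) and passed with DESeq2 and edgeR on 8 samples, Ms4a1 (CD20) passed with the block (limma adjusted p = 0.0458), and Cd79a and Pax5 were not analysed here. The B cell sum was 112 to 148 in Rragc +/+ and 130 to 233.1 in Rragc S74N/+ kidneys, and most of it was Ebf1. Ebf1, named after its value was seen, had means of 117 and 131 (0.15 ± 0.15, limma adjusted p = 0.581). The means of the others were 4.70 and 10.2 for Cd79b, 5.90 and 16.5 for Cr2, and 4.34 and 15.5 for Ms4a1. Of 8 plasma cell markers 5 were tested, and of 8 T cell markers 3. None of these passed the limma test (3 of each at an unadjusted p of 0.05), and with count models 0 plasma cell markers passed and 1 T cell marker, Lck, passed with edgeR on 10 samples. Lck also passed with the block (limma adjusted p = 0.0498). Plasma cell markers summed to 1002 to 3222 in Rragc +/+ and 1753 to 6972 in Rragc S74N/+ kidneys. The T cell sum was 8.95 to 30.2 in Rragc +/+ and 30.6 to 65.3 in Rragc S74N/+ kidneys, and Cd3e was at 0 in Rragc +/+ replicate 5 (1.61 ± 0.64, limma adjusted p = 0.131). Of 8 neutrophil markers 3 were tested. S100a9 rose (1.46 ± 0.40, limma adjusted p = 0.0399), a call that held in 3 of 10 fits without 1 kidney. S100a8 (1.14 ± 0.37, limma adjusted p = 0.0741) and Cxcr2 (0.14 ± 0.52, limma adjusted p = 0.895) did not pass.

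The kidney label was borne out by its epithelial markers, all 10 of which were in the table. Of these, 2 fell: Slc12a3, the thiazide-sensitive carrier of the distal tubule (−1.94 ± 0.14, limma adjusted p = 1.61e-06), and Umod, uromodulin of the thick ascending limb (−1.55 ± 0.23, limma adjusted p = 0.0013). None of 6 endothelial markers passed the limma test or a count model (2 at an unadjusted p of 0.05). Sums of the epithelial markers were 40054 to 46970 in Rragc +/+ and 31726 to 39738 in Rragc S74N/+ kidneys. These sums include the 2 that fell, with means of 4056 and 1078 for Slc12a3 and of 5806 and 2119 for Umod. The other 8 were not called, and 3 of the 10 had estimates above 0.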

How the data were processed

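Whole kidneys were sequenced from the 3′ end with an oligo-dT primed, sense-stranded kit. Per the submitters' processing notes and the study's methods, the authors checked reads with FastQC 0.11.7, aligned them to GRCm39 with TopHat2 2.0.10, Bowtie 1.0.0 and SAMtools 0.1.19, counted them per gene with HTSeq 0.6.1 and normalized with DESeq2. The deposited signal values are counts divided by the size factor of each sample. All 10 columns were matched to samples by title. No gene mean lay under 4.37, which points to a filter on low reads before deposit, and a gene absent from the table was not analysed.

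The fit used limma 3.58.1 (R 4.3.3) on log2(value + 1), with eBayes trend and genotype only, for genes at 5 or more in at least 5 samples, and p-values were adjusted by Benjamini-Hochberg over 13236 genes at 0.05, two-sided. For low genes the added 1 draws fold changes toward 0 (Cd3e was at 1.61, and at 1.84 with 0.5 added). Such estimates can also exceed those of a count model (Cd3e was at 1.28 with edgeR on 10 samples). Dividing by the value of 1 read gave whole reads within 0.001 in all 10 columns. In 2 of them 1 read was worth nearly 1 unit, so edgeR 4.0.16 and DESeq2 1.42.0 were run as planned on the other 8 samples, and edgeR also on all 10. The scripts were tested on simulated data. Ratios were compared by exact two-sided permutation over samples. Promoter windows came from RefSeq tables of GRCm38.p6. Of the 7 members, 2 (H2-Ab1 and Ciita) had no entry there, and no sequence of Cd74 or H2-DMa was used.

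The text names the 7 members, at most the 3 genes of lowest adjusted p from each pathway or marker list, a few fixed genes (Rragc, Ptprc, Adgre1, Itgax, Cd3e, Rfx5, Ctss) and the 10 genes that ran most like the members. Some results that this rule would name are not reported here. Members and lists were chosen with earlier results of these data known, so their agreement with those results is no independent support. Samples were grouped by the genotype in the labels, which give no replicate numbers, so numbers follow the order of deposit and name a kidney only. No batch is named in the labels. Alternatives were other pseudocounts, filters, scalings and variance models, the title number as a block, and leaving out each kidney.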

Additional observations from a re-analysis of the deposited data

Results flagged for a closer look

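Dixon's test was applied to both groups of 53 results, 106 groups in all, of which chance alone would mark about 5.3. It marked 8 values, from 4 kidneys, that stood far from the others of their genotype. For Cd74 counts per H2-Aa count, Rragc S74N/+ replicate 1 was at 9.06 with the other 4 at 4.04 to 4.56. The same kidney was high for Icosl (95.1 normalized counts, others 42.7 to 55.0), for Lck (25.2, others 16.0 to 18.3) and for S100a8 (41.0, others 10.7 to 18.5). In Rragc +/+ replicate 5, Cx3cr1 was high (92.5, others 52.4 to 58.6) and Laptm5 low (30.8, others 64.5 to 70.1). C1qb was high in Rragc +/+ replicate 1 (121.9, others 92.2 to 99.6), and Sdc1 was high in Rragc +/+ replicate 3 (33.6, others 9.36 to 14.8).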

How the results depend on the processing

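Cd74 was past the threshold in all 14 other settings (log2 fold change 1.04 to 1.17) and in all 10 fits without 1 kidney, and Cd74 was the only member called in each of those settings. The number of members called was 1 to 2 with 1 kidney left out (H2-Ab1, at 0.25 to 0.40 over such fits, joined without Rragc S74N/+ replicate 1). The number of genes called was 391 without a variance trend, 1402 with DESeq2 on 8 samples, and 311 to 902 with 1 kidney left out; with libraries scaled to equal sums it was 943, of which 718 were higher and 225 lower, and the median of all genes was 0.06. The estimate of H2-DMb1 turned below 0 with edgeR (−0.023), DESeq2 (−0.034) and limma (−0.069) on 8 samples and ranged from −0.075 to 0.16 with 1 kidney left out. Genes that were not called also changed sign: Adgre1 (−0.011, −0.021 and −0.077 on 8 samples, −0.0026 to 0.38 with 1 kidney left out), Cxcr2 (−0.073 with limma on 8 samples, −0.17 to 0.46), Marchf8 (0.057 with equal sums, 0.033, 0.025 and 0.024, and −0.077 to 0.042) and Cd83 (−0.021 to 0.62). The causes were not tested. With 1 kidney left out, the log2 difference per H2-Aa ranged from 0.57 to 0.93 for Cd74, from −0.063 to 0.16 for H2-Ab1, from −0.013 to 0.20 for Ciita and from −0.011 to 0.29 for H2-DMa; the Cd74 ratio passed only without Rragc +/+ replicate 5 (exact permutation, adjusted p = 0.0476). Within title numbers under 200 it was 0.45 for H2-Ab1 and 0.16 for H2-DMb1, and within those over 200 it was −0.50 for H2-Ab1, −0.50 for H2-DMa, −0.89 for H2-DMb1 and 0.094 for Cd74. With H2-Ab1 as the reference, added after the data had been seen, it was 0.72 for Cd74. That was past the threshold when adjusted over the ratios to H2-Ab1 alone. No paired analysis was possible because the labels carry no replicate numbers. At 5 kidneys per genotype the intervals of the chains reach to changes of up to 0.78, so smaller changes were not resolved, and Ciita and H2-DMb2 rest on few reads.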
